A study of Homo sapiens with 8 samples.

Results

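The peaks described here are IGF2BP1 binding sites in 3'UTRs that were listed in control H1299 cells and had no listed counterpart after AVJ16. IGF2BP1 was mapped by eCLIP in H1299, a human non-small cell lung carcinoma line. In eCLIP, RNA crosslinked to a protein by UV light is recovered with an antibody against that protein (IP) and sequenced beside a size-matched input library (SMInput). Cells were given 0.01% DMSO, the solvent control, or 1.5 µM AVJ16, a small-molecule inhibitor of IGF2BP1, for 24 h, and were irradiated at 254 nm with 400 mJ/cm2. For each treatment, 2 IP and 2 SMInput libraries were made, 8 in all, from wild-type cells of 1 thaw, and the authors deposited 1 peak list per treatment in which both replicates are combined. Each peak carries a log2 fold enrichment of IP over SMInput and a −log10 p, and no listed peak is under 3.00 in either.

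A peak of the DMSO list was counted as DMSO-only if it overlapped an annotated 3'UTR on its own strand, overlapped no coding sequence, and had no AVJ16 peak within 50 nt on that strand. By this rule 3809 of the 16653 DMSO peaks in 3'UTRs were DMSO-only, which is 22.9% (95% Wilson interval 22.2 to 23.5%), and over all 22311 DMSO peaks the share without an AVJ16 peak within 50 nt was 27.8%. The other 12844 are called shared peaks. The members were thus chosen by measured values, namely the presence of a peak in each list past its limits of enrichment and −log10 p and the distance between peaks, so the enrichments given here are a description and were not tested. A site under either threshold is not listed, whatever its signal, and a site past both may have been left out when the replicates were combined. DMSO-only thus means not listed with AVJ16 rather than not bound. Neither list gives replicates apart or states reads, so the depth is unknown, no error between replicates can be given and no test between the treatments was possible. All intervals are 95% intervals that cover counting error only, and peaks of 1 mRNA are not independent of each other. The lists hold no expression values either, so neither the identity of the cells nor the abundance of each mRNA could be checked.

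IGF2BP1 is an oncofetal RNA-binding protein that recognises RNA through its KH domains and is best known for binding 3'UTRs of mRNAs and shielding them from decay. Its sites often hold CA-rich stretches, and many of its targets carry m6A, a methylated adenosine found in GGAC-like contexts. A single 3'UTR can hold many sites, so that the absence of a site from a list need not leave the mRNA without a listed site.

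The sequences below, from the reference genome GRCh38, are the 30 nt at the midpoint of DMSO-only peaks among the 10 with the highest enrichment, with the strongest DMSO-only peaks of FOXO1 and RAB11FIP2. They are written 5′ to 3′ on the strand of the mRNA with T for U, and capitals mark ACA or GGAC. The strongest shared peaks of HACD2 and FOXO1 are shown for comparison.

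HACD2, DMSO-only, chr3:123491597-123491626 (−): agttgtattcataaaatactgatctgtgtt

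HACD2, shared, chr3:123491834-123491863 (−): caatACAtactgctcctttgaaatttgggt

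DNAJC11, DMSO-only, chr1:6634318-6634347 (−): aaaggtttctctgacggccccacggcccga

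USF3, DMSO-only, chr3:113649375-113649404 (−): ctttttctggcacgcgtatgtggtcagatg

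VTI1B, DMSO-only, chr14:67651081-67651110 (−): gcaaaaaaccaaatACAtttACAgtagtat

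PDK3, DMSO-only, chrX:24542878-24542907 (+): gttgctgttacttacgaACAataacttggc

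VPS13C, DMSO-only, chr15:61853272-61853301 (−): gaaagtcttttaagggcatcACAaattaac

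RARB, DMSO-only, chr3:25597290-25597319 (+): gaagagaattctgtatcagtgtaactgcca

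MFAP3, DMSO-only, chr5:154057286-154057315 (+): aacgcatttcACAaaagtaaataagtattt

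FOXO1, DMSO-only, chr13:40557808-40557837 (−): tgtttgtagatcagaaaagggagatctgca

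FOXO1, shared, chr13:40556799-40556828 (−): aacctcagagcccccatttgttcattaaag

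RAB11FIP2, DMSO-only, chr10:118005936-118005965 (−): aagatttagttgtaattttccagctgtgaa

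DMSO-only peaks were mostly those close to the threshold. Their median log2 fold enrichment was 3.39 (range 3.00 to 5.85), against 3.82 for shared peaks, and their median −log10 p was 7.23 against 16.5. Under a log2 fold enrichment of 3.5 lay 59.1% of DMSO-only and 29.5% of shared peaks. At 4 and over lay 492 DMSO-only peaks (12.9%), against 39.3% of the shared peaks, and 12 DMSO-only peaks reached 5. The share of DMSO peaks without a counterpart was 43.3% at an enrichment of 3 to 3.25, 31.1% at 3.25 to 3.5, 21.0% at 3.5 to 4, 11.9% at 4 to 4.5, 6.77% at 4.5 to 5 and 1.39% at 5 and over. It was 64.9% at a −log10 p of 3 to 5 and 0.856% at 50 and over. Of the 2757 DMSO peaks with an enrichment of at least 4 and a −log10 p of at least 20, 12 (0.435%) were DMSO-only.

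In the other direction the share was lower, with a similar fall by strength. Of the 16594 AVJ16 peaks in 3'UTRs, 3044 (18.3%, 17.8 to 18.9%) had no DMSO peak within 50 nt, and their share fell from 33.7% at an enrichment of 3 to 3.25 to 3.17% at 5 and over. In each range up to 4.5 the share was higher for DMSO peaks than for AVJ16 peaks, with intervals that did not overlap. The median enrichment of these AVJ16-only peaks was 3.37. At 5 and over the order of the lists was turned, with 1.39% of DMSO peaks (0.80 to 2.41%) and 3.17% of AVJ16 peaks (2.11 to 4.76%) without a counterpart, but the intervals overlapped. Coding-sequence peaks of the DMSO list lacked a counterpart more often than 3'UTR peaks, at 30.4% (1172 of 3854).

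**Figure D1:**
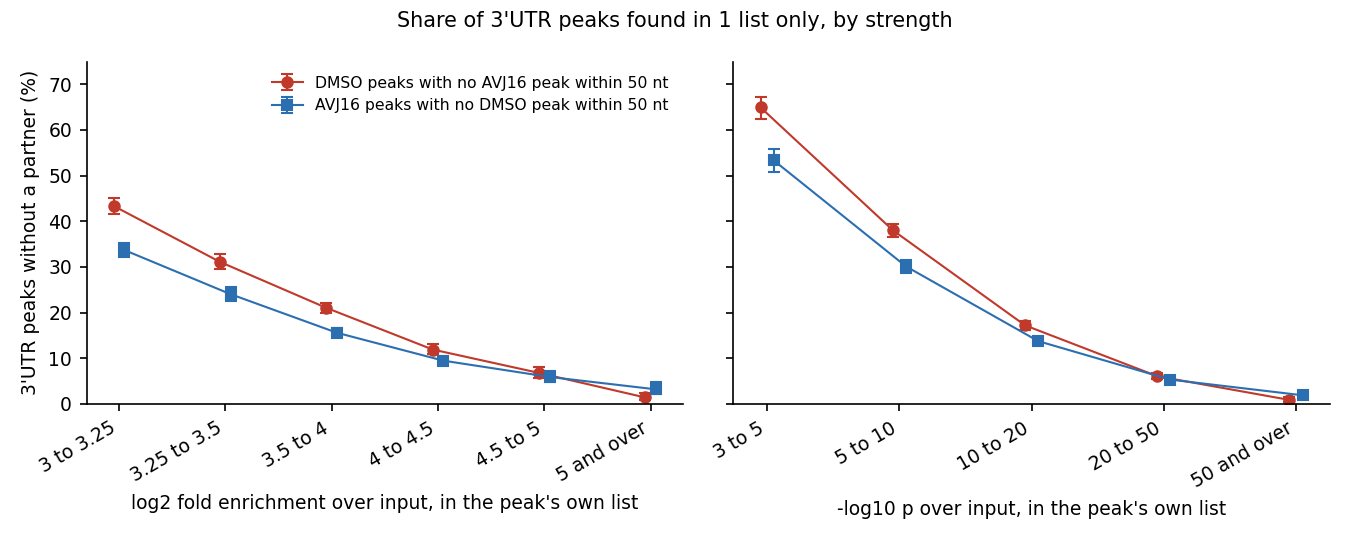
Share of 3'UTR peaks with no peak of the other list within 50 nt (y axis, %), for DMSO peaks (red circles) and AVJ16 peaks (blue squares), by the peak's own log2 fold enrichment (left) or −log10 p (right); bars are 95% Wilson intervals. The share of DMSO peaks falls from 43.3% to 1.39% with enrichment and from 64.9% to 0.856% with −log10 p, and the AVJ16 share falls as well, from 33.7% to 3.17% with enrichment.

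The DMSO-only peak with the highest enrichment was in HACD2, which encodes a dehydratase of very-long-chain fatty acid synthesis. It reached 5.85, lay 58 nt from the end of the annotated 3'UTR, and was 189 nt from the nearest AVJ16 peak. The other 17 of the 18 DMSO peaks in this 3'UTR were shared, and the AVJ16 list holds 23 peaks there. MFAP3 had a like arrangement, with a DMSO-only peak of 5.07 lying 149 nt from the end as the single DMSO-only peak among 15, and an AVJ16 peak 77 nt away. In PDK3, a kinase that inactivates pyruvate dehydrogenase, the DMSO-only peak of 5.08 was 1 of 4 among 28 DMSO peaks. EXOC4, a subunit of the exocyst complex, differed from these: all 3 of its DMSO peaks were DMSO-only, at 3.20, 5.23 and 3.35, and no AVJ16 peak lay in its 3'UTR. The single DMSO peak of DNAJC11, at 5.17, and both peaks of HMBOX1, at 5.07 and 3.27, also stood in 3'UTRs with no AVJ16 peak. The remaining peaks of the highest 10 were in USF3 (5.12), the SNARE gene VTI1B (5.09), the lipid transfer gene VPS13C (5.08) and RARB, a retinoic acid receptor (5.07), each in a 3'UTR with at least 2 AVJ16 peaks elsewhere. The −log10 p of these 10 peaks ran from 7.42 in USF3 to 17.8 in MFAP3.

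High significance without high enrichment also occurred. A −log10 p of 400, the upper limit of the files, was reached by DMSO-only peaks of GANAB at an enrichment of 3.15, HSP90AA1 at 3.02 and PKM at 3.00. All 3 sat just above the enrichment threshold. The GANAB peak lay 64 nt from an AVJ16 peak of 3.11. The HSP90AA1 peak lay 78 nt from an AVJ16 peak of 3.67, which also reached a −log10 p of 400. The 3'UTR of PKM held no AVJ16 peak. Among the shared peaks, 476 reached this limit of −log10 p.

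The distance rule placed most DMSO-only peaks well away from any AVJ16 peak. The median distance to the nearest one was 622 nt, 13.4% lay within 100 nt and 57.9% within 1000 nt. Of the shared peaks, 11742 (91.4%) overlapped their AVJ16 counterpart. At 51 to 60 nt lay 123 peaks with a median enrichment of 3.48, and 184 peaks at 41 to 50 nt had a median of 3.5. Just inside the rule were peaks of CHRAC1 (4.64) and CNTN1 (4.60), both 51 nt from an AVJ16 peak, and just outside it were SKI (5.01) and PALM2AKAP2 (4.41), both at 50 nt.

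The 3809 DMSO-only peaks fell in 2464 of the 4285 genes with a DMSO 3'UTR peak. In 1355 of these genes (31.6% of the 4285) they stood beside shared peaks, so that 2299 DMSO-only peaks (60.4%) had a shared site in the same 3'UTR. In 1109 genes (25.9%) every DMSO peak of the 3'UTR was DMSO-only, and 1821 (42.5%) held shared peaks alone. Of the 1109, 819 held a single DMSO peak, 211 held 2 and 79 held 3 or more. An AVJ16 peak elsewhere in the 3'UTR was found for 202 of the 1109 (18.2%), and 907 had no AVJ16 peak in the 3'UTR at all.

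The fewer peaks a 3'UTR held, the more often a peak had no counterpart. The DMSO-only share was 59.4% in 3'UTRs with 1 peak, 39.1% with 2, 30.4% with 3, 26.6% with 4 to 5, 16.9% with 6 to 10 and 7.26% with 11 or more. Peaks in sparsely bound 3'UTRs were weaker, with a median enrichment of 3.47 for single peaks against 3.92 in 3'UTRs with 11 or more. Among peaks under 3.5 the share was 68.2% for single peaks and 17.6% at 11 or more. Among peaks under 3.5 with a −log10 p of 5 to 10 it was 67.9% (62.4 to 72.9%) and 31.7% (26.3 to 37.6%), so the difference was smaller between peaks of like strength but did not vanish. An AVJ16 peak nearby is also found more readily where a 3'UTR holds many, and the share of this in the difference was not tested.

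**Figure D2:**
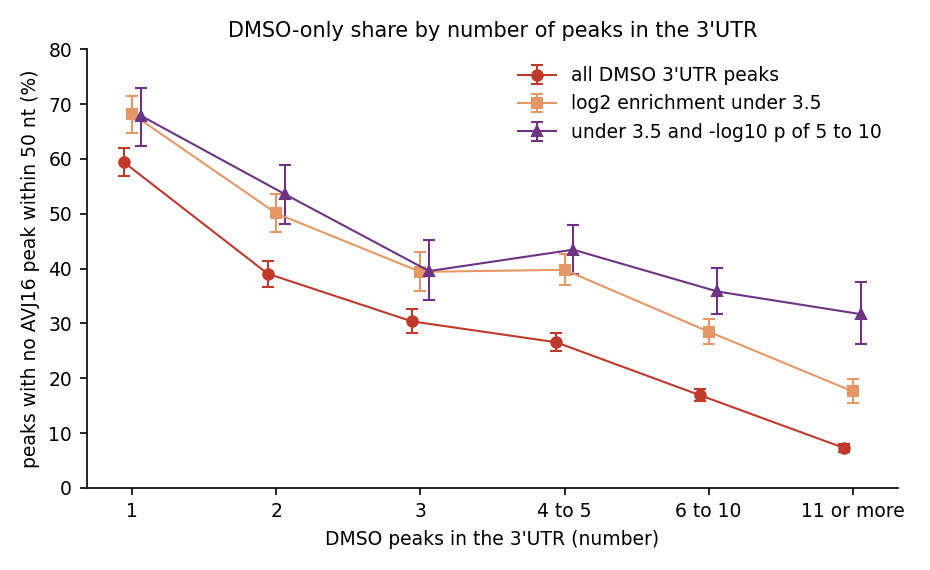
DMSO-only share of DMSO 3'UTR peaks (y axis, %) by the number of DMSO peaks in the 3'UTR, for all peaks (red), peaks with a log2 fold enrichment under 3.5 (orange) and such peaks with a −log10 p of 5 to 10 (purple); bars are 95% Wilson intervals. The share falls in all 3 sets, from 59.4% to 7.26% over all peaks and from 67.9% to 31.7% in the set of most similar strength.

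Neighbouring peaks were counted along each 3'UTR. Going from the stop codon to the end, the peak after a DMSO-only peak was also DMSO-only in 1022 of 2082 cases (49.1%), against 1085 of 10286 (10.5%) after a shared peak. These counts include the 3'UTRs with DMSO-only peaks alone, where every next peak is DMSO-only by definition. In the 1355 3'UTRs with both kinds the shares were 36.9% (621 of 1681) and 22.2% (1085 of 4887), and since these 3'UTRs differ in their DMSO-only share, the order within a 3'UTR was not tested. Another DMSO-only peak touched 11% of DMSO-only peaks and a shared peak touched 1.89%, whereas 50.5% of shared peaks touched another shared peak. The rule favours this contrast, since a peak that touches a shared peak mostly lies near an AVJ16 peak as well. Shared peaks are also more numerous, so these shares do not show that DMSO-only sites are more isolated. The longest run of touching DMSO-only peaks was 4. Their median length was 70 nt against 68 nt for shared peaks over all 3'UTRs. Within the 1355 3'UTRs that hold both kinds, however, DMSO-only peaks were shorter by a median of 15.5 nt (13.5 to 17.3 nt) and were longer in 409 of these 3'UTRs.

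At shared peaks, which by the rule are listed in both treatments, the enrichments can be set side by side only as a description, since both lists cut at 3 and each is relative to its own inputs. The median difference between the AVJ16 and DMSO log2 fold enrichments at shared peaks was -0.091 in 3'UTRs with a DMSO-only peak (-0.11 to -0.072, 5624 peaks) and -0.039 in 3'UTRs without one (-0.053 to -0.027, 7220 peaks). At a DMSO enrichment of 4 and over these medians were -0.47 and -0.32, at 3.5 to 4 they were -0.11 and -0.018, and at 3 to 3.5 both were above 0, at 0.17 and 0.20. The interval of the -0.018 included 0 (-0.042 to 0.012). These ranges were cut by the DMSO enrichment, which also enters the difference. The change of sign between ranges is therefore built in, at least in part, by the choice of peaks. An AVJ16-only peak was present in 45.2% of the 3'UTRs with both kinds of DMSO peak and in 33.0% of those with shared peaks alone. The former hold more peaks, and among 3'UTRs with like numbers of DMSO peaks the shares lay closer, at 35.1% and 30.4% with 2 to 3 peaks, 41.9% and 35.6% with 4 to 5, 51.5% and 41.5% with 6 to 10, and 67.3% and 58.0% with 11 or more. The intervals of each of these pairs overlapped.

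By position, DMSO-only peaks lay somewhat farther from the stop codon. The midpoint of the median DMSO-only peak was 1077 nt from the stop codon against 924 nt for shared peaks, a difference of 153 nt (98.6 to 207 nt). As a share of the 3'UTR, from the stop codon at 0% to the annotated end at 100%, the medians were 44.5% and 41.4%, a difference of 3.12 points (1.31 to 4.93). Their 3'UTRs were longer, with a median of 3025 nt against 2774 nt. Within 3'UTRs that hold both kinds the difference was 1.42 points, with an interval from -1.91 to 3.46, and DMSO-only peaks lay farther along in 695 of 1355 3'UTRs. A shift along the same 3'UTR was thus not detected, and the overall difference fell to 1.36 points for peaks with a −log10 p of at least 10 and to 1.01 with touching peaks joined.

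The end of the 3'UTR stood out. The DMSO-only share was between 20.8% and 24.8% in each 10% of the 3'UTR up to 90%, and 29.0% in the last 10%. Within the last 10% lay 7.82% of DMSO-only and 5.68% of shared peaks, a difference of 2.14 points (1.23 to 3.12). The higher share at the end was present at each strength: 46.5% against 37.3% over the whole 3'UTR at an enrichment of 3 to 3.5, 26.6% against 21.0% at 3.5 to 4, and 13.6% against 8.88% at 4 and over. At 3.5 to 4 the intervals overlapped (22.0 to 31.7% and 19.9 to 22.2%), and the whole 3'UTR includes its last 10%. AVJ16-only peaks showed no such rise, with 18.5% of the AVJ16 peaks in the last 10%. Within 200 nt of the annotated end lay 9.0% of DMSO-only, 6.81% of shared and 5.95% of AVJ16-only peaks.

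**Figure D3:**
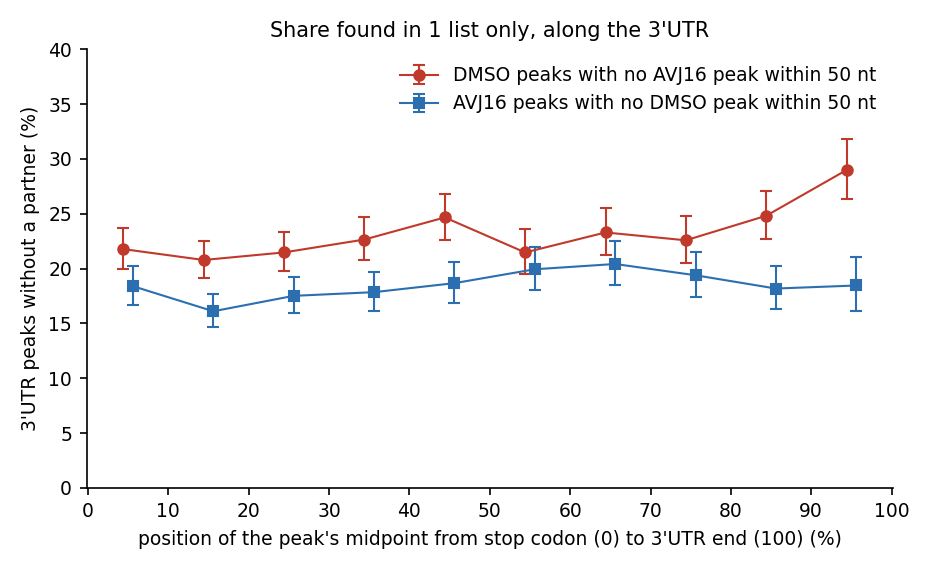
Share of 3'UTR peaks with no peak of the other list within 50 nt (y axis, %) along the 3'UTR, in steps of 10% from stop codon to annotated end, for DMSO peaks (red circles) and AVJ16 peaks (blue squares); bars are 95% Wilson intervals. The DMSO share is between 20.8% and 24.8% until the last 10%, where it is 29.0%, while the AVJ16 share there is 18.5%.

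DMSO-only peaks were slightly lower in GC than shared peaks, and AVJ16-only peaks were higher than both. The median GC content was 39.4% in DMSO-only peaks, 40.5% in shared peaks and 44.4% in AVJ16-only peaks. DMSO-only peaks differed from shared peaks by -1.15 points (-1.62 to -0.67) and from AVJ16-only peaks by -5.05 points (-5.73 to -4.38). Within 3'UTRs with both kinds, the difference from shared peaks was 0.23 points (-0.21 to 0.75), and DMSO-only peaks were higher in 698 of 1355. The overall difference from shared peaks thus was not found between sites of the same mRNA. Against AVJ16-only peaks a difference of -1.99 points (-2.81 to -1.08) remained within the 812 3'UTRs that hold both, with DMSO-only peaks higher in 344 of them.

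The DMSO-only share by GC content was 27.1% under 30% GC, 24.0% at 30 to 40%, 20.5% at 40 to 50%, 21.1% at 50 to 60% and 25.9% at 60% and over. The AVJ16-only share rose over the same ranges from 11.6% to 28.6%. At under 30% GC, DMSO peaks lacked a counterpart far more often than AVJ16 peaks did, and from 40% GC the intervals of the 2 lists overlapped. Each treatment has its own libraries, and the part of library preparation in this GC difference was not tested.

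**Figure D4:**
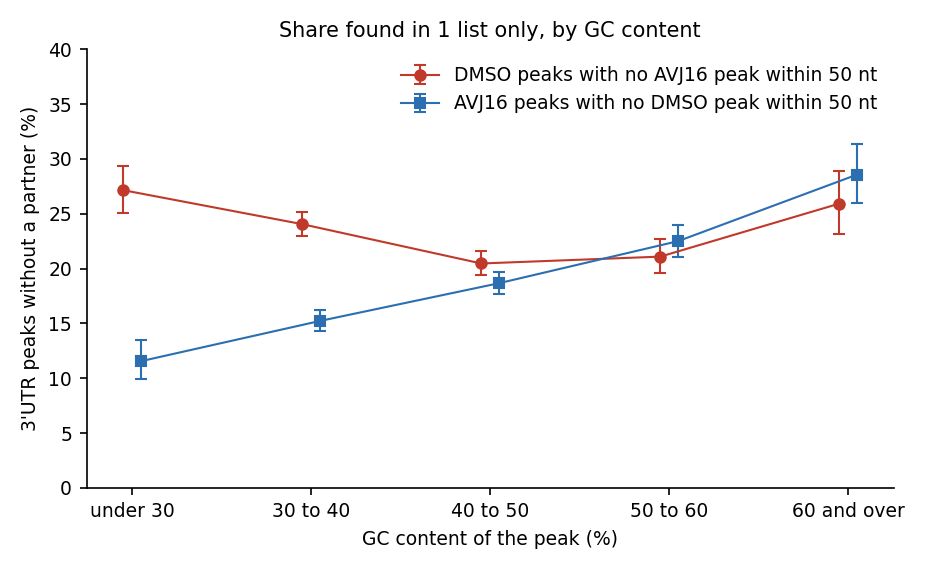
Share of 3'UTR peaks with no peak of the other list within 50 nt (y axis, %) by GC content of the peak, for DMSO peaks (red circles) and AVJ16 peaks (blue squares); bars are 95% Wilson intervals. The DMSO share is 27.1% under 30% GC and 20.5% at 40 to 50%, whereas the AVJ16 share rises from 11.6% to 28.6%.

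In 75-nt windows at the midpoints the median GC content was 38.7% for DMSO-only peaks and also 38.7% for windows outside peaks in the same 3'UTRs, so DMSO-only peaks were at the level of their 3'UTRs. The base composition of these windows is given next. DMSO-only windows held 27.6% A, 22.1% C, 18.3% G and 32.0% U, and shared windows 26.5% A, 23.0% C, 18.4% G and 32.1% U. AVJ16-only windows held 23.4% C and 20.8% G. The 78068 windows of the same length outside peaks, in 3'UTRs with DMSO-only peaks, held 19.5% C and 20.9% G. Windows of both kinds in the DMSO list were thus richer in C and poorer in G than these outside windows. For shared peaks the outside windows are not a matched background, since 7220 shared peaks lay in 3'UTRs without a DMSO-only peak. Those 3'UTRs gave no outside windows. The higher C was not particular to the DMSO list, since AVJ16-only windows were also richer in C than the outside windows. Their G was close to that of the outside windows.

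Short motifs were searched in these windows on the mRNA strand. ACA was in 73.3% of DMSO-only, 74.1% of shared and 68.0% of outside windows, and GGAC, the core of the m6A consensus, in 15.6%, 14.8% and 14.3%. Neither differed between DMSO-only and shared peaks beyond counting error. UCAUUC was in 3.60% of DMSO-only and 4.50% of shared windows, a difference of -0.90 points (-1.56 to -0.18), and in 2.09% of outside windows. AAUAAA, the polyadenylation signal, was in 6.20% of DMSO-only and 4.85% of shared windows, a difference of 1.35 points (0.53 to 2.23), in 3.91% of AVJ16-only and in 6.66% of outside windows. Among peaks at least 200 nt from the annotated end, AAUAAA was in 5.42% of DMSO-only and 4.47% of shared windows. GGGG was in 13.1% of both DMSO-only and shared windows and in 18.0% of AVJ16-only windows. The interval of the difference from shared peaks included 0 for GGGG, for UGGAC, for the AU-rich element UAUUUAU, for the Pumilio element UGUANAU, for the let-7 seed match CUACCUC, for UUUUU, and for UCCAG and for CCNGUU, which were tried because the study names them. Motifs can overlap, as UGGAC holds GGAC, and a match is not a binding site.

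The 3'UTR with the most DMSO-only peaks was that of TUG1, known as a noncoding RNA but annotated with a coding sequence in the GENCODE release used. DMSO-only peaks numbered 11 of 17 there, at 3.04 to 3.66. They lay between 879 and 5570 nt from the stop codon, and all 7 AVJ16 peaks lay at 4610 nt or beyond. The first 8 DMSO-only peaks therefore formed a stretch with no listed AVJ16 site.

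FOXO1, a transcription factor that AKT phosphorylates and keeps out of the nucleus, had 8 DMSO-only peaks among 10. Their enrichments from the stop codon were 3.60, 3.06, 4.13, 4.26, 4.26, 4.46, 4.20 and 3.47, at 157, 528, 919, 1028, 1146, 1228, 1719 and 2768 nt. The 5 peaks from 919 to 1719 nt were thus all above 4. Its shared peaks were 3.34 at 2100 nt and 3.52 at 2237 nt, and AVJ16 peaks stood at 1448, 2285 and 3156 nt at 3.16, 3.06 and 3.11.

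RAB11FIP2, which encodes a Rab11 effector of recycling endosomes, had the most peaks of any 3'UTR with DMSO-only peaks alone. Its 6 peaks between 2980 and 3737 nt had enrichments of 3.45, 4.71, 3.28, 3.88, 3.42 and 3.09, and no AVJ16 peak was listed in the 3'UTR. RPS6KA3, a kinase downstream of ERK, had 7 DMSO-only peaks among 9, of which 3 lay before the first shared site at 1396 nt and 4 beyond 4000 nt. NR2C2, an orphan nuclear receptor gene, had 7 among 8, and its single AVJ16 peak stood at 2582 nt with an enrichment of 3.11, ahead of all 7. In RAB11FIP2 and NR2C2 the DMSO-only peaks thus followed each other with no shared peak between them.

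TEAD1, the transcription factor partner of YAP, differed in that its 7 DMSO-only peaks lay between 1379 and 2780 nt, while 17 shared peaks, up to 5.93, lay on both sides and between them. NFIA had 7 DMSO-only peaks among 16, CUX1 7 among 13, TBC1D5 6 among 13 and ONECUT2 6 among 15. The DMSO-only peaks of these 4 genes ranged from 3.11 to 4.43.

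Several other 3'UTRs with DMSO-only peaks alone held clusters. In PURA, a gene for a nucleic acid-binding protein, 4 of 5 peaks lay between 2375 and 2662 nt, at 3.97, 3.81, 4.01 and 3.81. In SRSF10, a splicing factor gene, 4 of 5 lay between 3995 and 4187 nt, at 3.74, 3.11, 3.33 and 3.36. SRPK2, a kinase of splicing factors, had 4 peaks at 4.16, 3.40, 3.49 and 4.49, and the deubiquitinase gene USP46 had 4 at 3.73, 4.56, 3.30 and 3.23. BCLAF1 had 4 with midpoints between 1731 and 1832 nt, which touch each other and form an unbroken stretch. The shortest of them were 9 and 10 nt long. KLHL18 had 5. None of these 6 genes had an AVJ16 peak in the 3'UTR, whereas GPRIN3 had 2, MAP3K9 had 1 and AGAP1 had 1, all farther than 50 nt from their DMSO peaks.

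**Figure D5:**
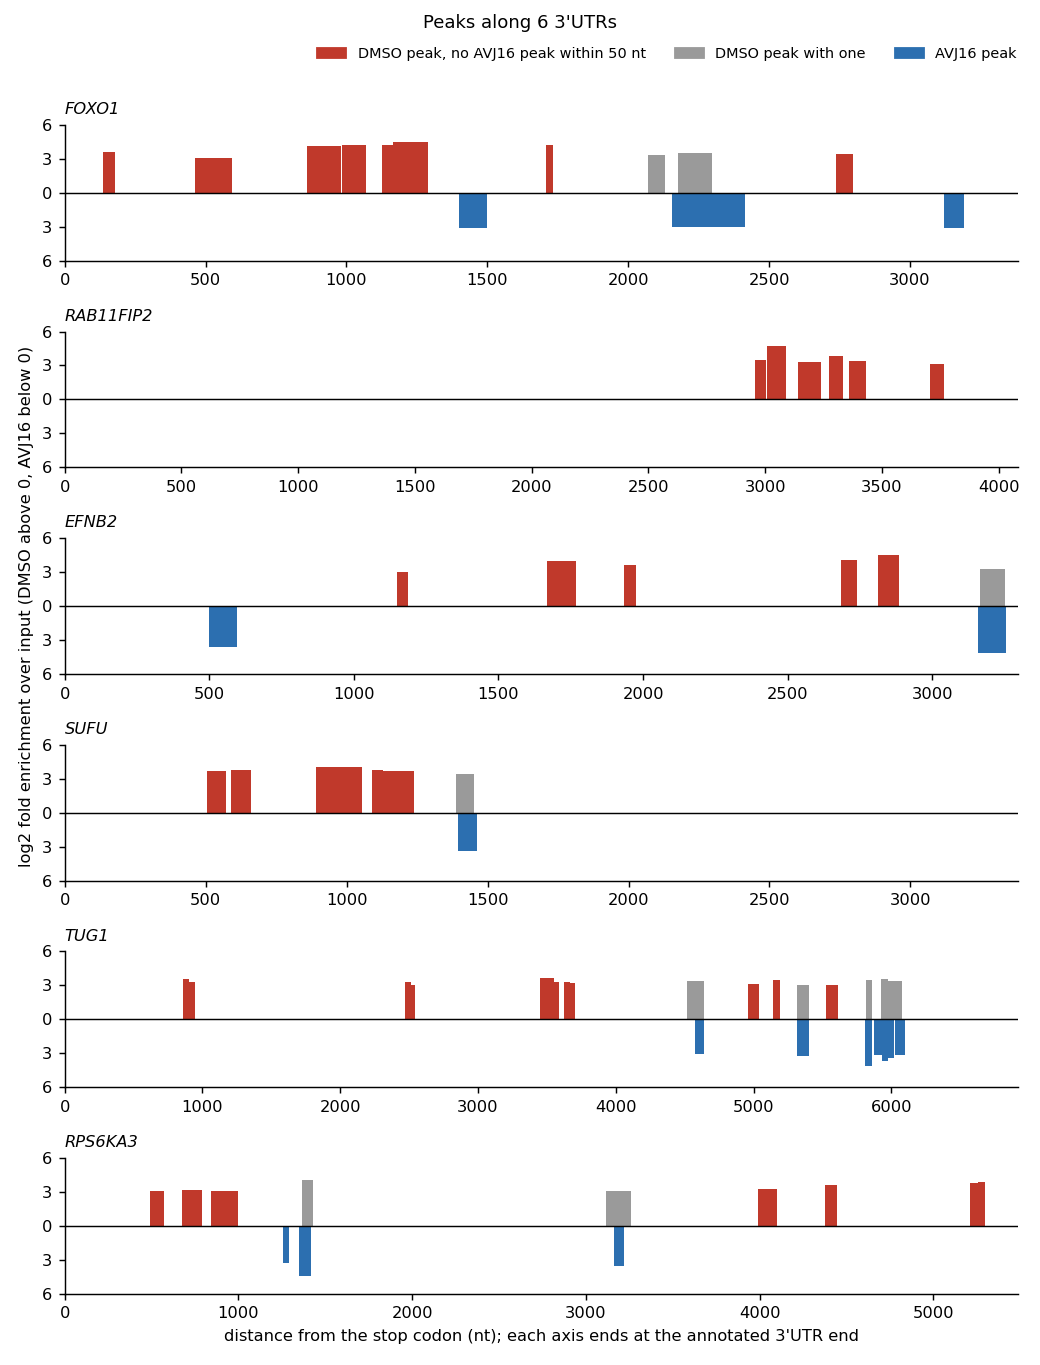
Peaks along the 3'UTRs of FOXO1, RAB11FIP2, EFNB2, SUFU, TUG1 and RPS6KA3. The x axis is the distance of the peak's midpoint from the stop codon (nt), bar height is log2 fold enrichment, with DMSO peaks above 0 (red DMSO-only, grey shared) and AVJ16 peaks below 0 (blue), and bar width is peak length, with very short peaks widened to be seen. FOXO1 shows 8 red and 2 grey bars, RAB11FIP2 shows 6 red bars and no blue one, and the 11 red bars of TUG1 lie mostly ahead of its 7 blue ones.

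Of 18 mRNAs long known as IGF2BP1 targets, 11 had a DMSO peak in the 3'UTR. Among these, 10 of 98 DMSO peaks were DMSO-only, which is 10.2% (5.64 to 17.8%) against 22.9% over all 3'UTR peaks. Their peaks were strong, and giving each peak the DMSO-only share of all 3'UTR peaks in its range of enrichment and −log10 p gave 9.05%. The chromatin factor gene HMGA2 had 1 DMSO-only peak (3.73) among 33 and LIN28B, a blocker of let-7 maturation, 1 (3.10) among 10. CDK6, a G1 kinase, had 2 of 25 and the adhesion receptor CD44 had none of 14. The single DMSO-only peaks of MYC (3.56, of 4 peaks), BTRC (4.08, of 2) and CTNNB1 (3.39, of 2) each stood in a 3'UTR with at least 1 shared peak. In BTRC, the substrate receptor of the ubiquitin ligase that marks β-catenin, the DMSO-only peak was the more enriched of the pair, the shared peak being 3.69. The DMSO-only peak had the lower −log10 p, at 5.20 against 5.66, and lay 70 nt from the AVJ16 peak. Both peaks of SRF (3.10 and 3.76), the serum response factor, were DMSO-only, and an AVJ16 peak of 3.20 stood 370 nt from the stop codon. Both peaks of ACTB were shared.

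For the lists that follow, the share given by the strength of their peaks was found in the same way. In the PI3K-AKT-mTOR list 27 of 129 peaks were DMSO-only (20.9%), against 22.9% over all 3'UTR peaks and 21.5% given by strength. Of the 27, 8 were the FOXO1 peaks described above. All 3 peaks of RPS6KB1, the S6 kinase, were DMSO-only at 3.90, 4.05 and 3.32, as were all 3 of the lipid kinase PIK3C2A at 4.07, 3.58 and 3.30. PDPK1, the kinase that activates AKT, had 3 of 6, the strongest at 4.54. In the Hedgehog list 10 of 32 were DMSO-only (31.3%, 18.0 to 48.6%), and the share given by strength was also 31.3%. Of the 10, 5 were in SUFU, the inhibitor of GLI factors. The SUFU peaks were 3.66, 3.78, 4.02, 3.76 and 3.66 between 538 and 1184 nt, and a shared peak stood at 1420 nt (3.40 with DMSO and 3.38 with AVJ16). PRKACB, a catalytic subunit of protein kinase A, had 3 of 7, the transducer SMO 1 of 3 (4.43) and GAS1 its single peak (3.29).

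In the WNT list the share was 22.6% (24 of 106), against 24.5% given by strength. DVL3, which relays the signal of Frizzled receptors, had 3 DMSO-only peaks among 13, and ZNRF3, a ligase that removes those receptors, had 3 of 4. The receptor gene ROR1 had 2 of 4, at 4.42 and 4.13, and TNKS, which destabilises axin, 2 of 6. In the RAS-MAPK list 15.4% were DMSO-only (21 of 136), against 19.5% given by strength, with 3 of 13 in EGFR (3.89, 4.35 and 3.19). RAP2A had 2 of 11 and the adaptor gene GRB2 2 of 3.

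In the cell cycle list 18.3% were DMSO-only (17 of 93), against 20.2% given by strength. CCND2, the gene of cyclin D2, had 4 of 17, the strongest at 5.0 and 4525 nt, and its remaining 13 peaks were shared. MAD2L1, of the spindle checkpoint, had 2 of 6, E2F3 had 2 of 3 and CDK6 is given above. In the axon guidance list 20.2% were DMSO-only (21 of 104), against 24.4% given by strength. EFNB2, the gene of ephrin-B2, had 5 of 6, at 3.03, 3.96, 3.60, 4.11 and 4.48, and also had a shared peak at 3208 nt of 3.27 with DMSO and 4.16 with AVJ16. EPHA4, an ephrin receptor gene, had 3 of 11, and ROBO1 and SRGAP2 had 2 each.

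The extracellular matrix and integrin list had the lowest share, with 7 of 105 (6.67%, 3.27 to 13.1%). The ranges of enrichment and −log10 p of its peaks gave 18.2%, above the upper end of that interval. LAMC1, a laminin gene, held 18 of the 105 peaks, and 17 of them were shared. CD44 and the integrin gene ITGA6 held 14 each, all shared. The share given by strength takes no account of how many peaks a 3'UTR holds. The part of densely bound 3'UTRs in the low share of this list was not tested. The 7 were in 7 genes, among them the integrin gene ITGA1 (4.00) and the collagen genes COL4A1 (3.70, of 8 peaks), COL3A1 (3.40) and COL5A1 (3.38), and each of these 4 also held shared peaks. For the other 9 of the 10 lists the interval of the share included the share given by strength, and no interval was adjusted for the number of lists.

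Genes of the m6A machinery had 8 DMSO-only peaks among 32 (25%, 13.3 to 42.1%), against 22.0% given by strength. Of the 8, 3 were in the mRNA of IGF2BP1 itself. Its DMSO-only peaks were 3.27 at 4952 nt, 3.80 at 6073 nt and 3.76 at 6121 nt, between shared peaks at 2442, 2512 and 6559 nt. The methyltransferase gene METTL16 had 2 of 3, and RBM15B and CBLL1, which encode parts of the writer complex, had 1 each. In the microRNA pathway 16 of 53 were DMSO-only (30.2%, 19.5 to 43.5%), against 27.6% given by strength. All 3 peaks of DICER1, the nuclease that cuts microRNA precursors, were DMSO-only at 3.27, 3.55 and 3.24, with no AVJ16 peak in the 3'UTR. The deadenylase genes CNOT6L and CNOT6 had 3 of 5 and 2 of 4, and AGO2, which carries microRNAs to their targets, 2 of 10.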

How the data were processed

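IGF2BP1 eCLIP was done in duplicate IP and SMInput libraries of H1299 cells given DMSO or AVJ16, prepared, per the labels, as 2 batches, whose assignment to samples is not given in the sources used here. The authors called peaks with CLIPper on reads that had been trimmed, cleared of repetitive elements, aligned by STAR and freed of PCR duplicates, and set IP against SMInput. The −log10 p-value of each peak (at most 400) and the log2 fold enrichment were deposited by the authors, in 1 list per treatment with both replicates pooled and normalized to its own inputs. How replicates were merged is not described in the Methods. The labels name hg38, and GENCODE release 44 was used for 3'UTRs.

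Each peak was assigned to the gene whose 3'UTR it overlapped most, protein-coding genes first, and its midpoint was placed in the 3'UTR of the canonical transcript where it lay there, otherwise of the longest. Distances are gaps in genomic nt on the same strand. Shares have 95% Wilson intervals, differences of shares Newcombe intervals, and medians order-statistic intervals, which were combined for differences. Motifs were sought in 75-nt windows. The code was tested on simulated peaks with known positions. Tools were samtools 1.23.1, pysam 0.24.0, matplotlib 3.10.9, scipy 1.17.1, pandas 2.3.3, numpy 2.4.6 and Python 3.11.15.

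The members, gene lists, rules and alternatives were chosen with earlier results of these data known. Genes named are the 10 most enriched DMSO-only peaks, the 10 3'UTRs with most DMSO-only peaks, the 10 with most peaks among those with DMSO-only peaks alone, the known targets, up to 4 genes per other list, and the peaks nearest the 50 nt limit. Some items under this rule are not reported here. The 3 peaks at the limit of 400, and the shares by strength and number of peaks together or within 3'UTRs with both kinds, were chosen after their values were seen. Alternatives were other distances, thresholds, annotations and the joining of touching peaks.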

Additional observations from a re-analysis of the deposited data

How the results depend on the processing

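The share of DMSO 3'UTR peaks that were DMSO-only, 22.9%, was 29.5% when only an overlapping AVJ16 peak counted, 19.8% at 100 nt, 16.4% at 200 nt and 28.6% with touching peaks joined. It was 14.7% for DMSO peaks of at least 3.5, 8.88% at 4 and 10.8% when a −log10 p of 10 was required, with 1559, 492 and 1165 DMSO-only peaks. The share with a shared site in the same 3'UTR, 60.4%, was 67.2% by overlap, 56.1% at 100 nt, 49.1% at 200 nt, 51.8% at 3.5, 39.0% at 4 and 63.8% at a −log10 p of 10. The share of 3'UTRs with DMSO-only peaks alone, 25.9%, was 24.1% at 200 nt, 19.1% at 3.5, 12.9% at 4 and 12.1% at a −log10 p of 10. The GC difference of -1.15 points was -1.68 at 3.5, -1.95 at 4, -1.90 at 3.5 to 4, -1.95 for peaks of 4 and over, and 0.23 within 3'UTRs. The position difference of 3.12 points was 1.01 with touching peaks joined, 1.36 when a −log10 p of 10 was required and 2.09 by overlap. The cause of these changes was not tested, apart from the fewer peaks that a threshold leaves. Leaving out short peaks, noncanonical transcripts or peaks that overlap 3'UTRs of several genes moved no value beyond its interval. No paired analysis was possible because each list pools both replicates, and for the same reason no replicate could be left out.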
